A study of Mus musculus with 18 samples.

Results

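The genes described here encode the molecules with which growing neurites and brain cells touch, steer and anchor themselves: cadherins, protocadherins, integrins, semaphorins with their plexin and neuropilin receptors, ephrins with their Eph receptors, Slit with Robo, netrin with Unc5, laminins and collagens. They were taken by name: a probe belonged to the set if the number in its zero-padded identifier, read as a mouse NCBI gene ID, gave a symbol of 1 of these families. The rule found 159 probes for 138 genes among 46120 probes on the array, of which 9832 probes for 8127 genes could be named in this way. A gene with more than 1 tested probe has them told apart by the letters a and b. The rule also took Unc50, Unc5cl, Itgb1bp1 and Itgbl1, which carry a family's name but are neither netrin receptors nor integrin chains. Of the 159 probes, 60 probes for 56 genes were detected on at least 3 of 18 arrays and were tested.

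Cadherins and most protocadherins bind like molecules on a neighbouring cell, and the clustered protocadherins give single neurons distinct surface identities. Semaphorins, ephrins, Slits and netrins are cues that turn or stop axons through plexins and neuropilins, Eph receptors, Robo receptors, and Unc5 receptors. Integrins, laminins and collagens tie cells to the extracellular matrix, whose basement membranes in brain lie around vessels and under the meninges.

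Total RNA of cortex and hippocampus was measured in 18 samples from CD-1 mice aged 16 days and labelled male, 3 samples in each of 6 groups. CCH hippocampus and CCH cortex came from mice kept for 2 weeks, from postnatal day 2, under chronic consistent hypoxia. CIH hippocampus and CIH cortex came from mice under chronic intermittent hypoxia for the same 2 weeks, and control hippocampus and control cortex from mice of the same age. The sources used here give neither the oxygen level nor the cycle nor the handling of the controls. They also do not say whether the 3 samples of a group were separate animals, or whether hippocampus and cortex of 1 number came from 1 animal, so p-values measure only the spread between these samples. Cortex and hippocampus are bulk tissue, in which fewer cells of a type and less RNA per cell cannot be told apart.

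Between 12251 and 14530 probes were detected per array, and replicate arrays correlated at 0.982 to 0.995 over the 14664 probes tested. Of 5 hippocampal marker probes 4 were called higher in hippocampus in each exposure, and of 7 cortical marker probes 4 were called lower, while the other 3, all of Etv1, lay above 0 without being called (0.01 to 0.16 log2 units in controls). In controls Prox1, the dentate granule cell factor, was 1.82 and Fibcd1 3.29 log2 units higher in hippocampus, and Mef2c differed by −1.94 and Cux2 by −0.99, each at an adjusted p under 0.05. Drd1, the dopamine receptor of striatal neurons, differed by −2.15 log2 units between control hippocampus and control cortex (adjusted p = 4.5e-10), and the mean log2 signal of the 2 striatal marker probes tested was 7.15 to 7.41 on the hippocampal arrays and 8.55 to 9.16 on the cortical arrays. Of 6 meningeal fibroblast probes 3 were higher in control hippocampus, among them both of Dcn, a matrix proteoglycan, by 1.58 and 1.38 log2 units. The part of striatal or meningeal tissue in the regional differences was not tested. Xist, a noncoding RNA of X inactivation that female tissue makes, was high on 5 arrays, namely CCH hippocampus 3, CIH hippocampus 2, CIH cortex 2, CCH cortex 2 and CCH cortex 3, although all were labelled male. No control array was among them, and results are also given without them. Kdm5d, a Y-linked gene, read 6.46 to 6.51 log2 units on these 5 arrays and was detected on none of them. On the other arrays it read 6.71 to 6.93 and was detected on all but control cortex 2. The other Y-linked probes, of Uty, Ddx3y and Eif2s3y, were detected on no array. For CCH number 2, Xist read 10.05 in cortex and 6.56 in hippocampus, so arrays of 1 number need not share an animal.

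Detection differed between the families. The clustered protocadherins held 42 probes on the array, of which 11 were tested, 4 were detected on all 18 arrays and 29 on no array. Of 31 collagen probes 11 were tested and 19 were detected nowhere, and of 6 laminin probes only that of Lamb2, a basement membrane chain, was tested, with 5 detected on no array. Semaphorins were tested for 7 of 10 probes, plexins for 2 of 4, Eph receptors for 3 of 7, ephrins for 1 of 3, integrins and integrin-named genes for 4 of 14, cadherins for 6 of 16 and the other protocadherins for 5 of 10. Slit2 had its 1 probe tested, Ntn3 both of its probes, Robo receptors 2 of 3, Unc5 receptors and Unc5-named genes 2 of 5. Neuropilins were tested only through both probes of Nrp1, because the 3 probes of Nrp2 were detected on no array. A second probe was left untested for Efna5, Epha7, Ephb2, Pcdha1, Pcdhgb1, Pcdhgc5 and Col7a1 and for 1 of the 3 probes of Cdh2, so these genes rest on the probes that gave signal.

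**Figure D1:**
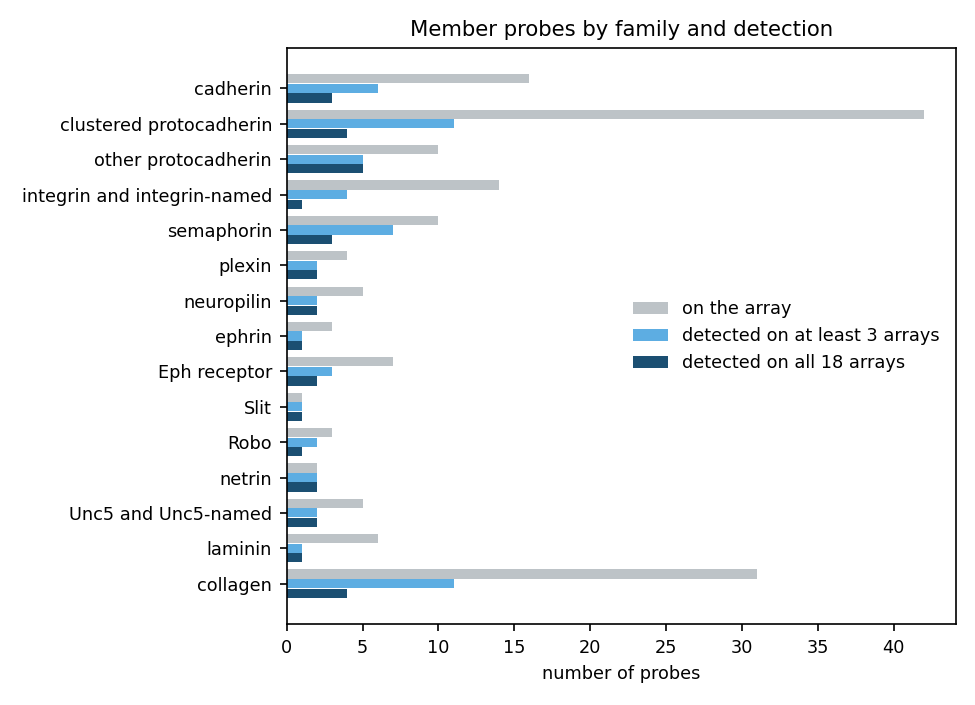
Number of probes of each family (horizontal axis) on the array, detected on at least 3 arrays and detected on all 18 arrays, by family (vertical axis). Clustered protocadherins had 42 probes on the array and 11 tested, and collagens 31 and 11.

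The first question is which of these genes mark the hippocampus against the cortex. In control mice 18 of the 60 member probes differed between the tissues at a Benjamini-Hochberg adjusted p under 0.05 in limma, 9 higher and 9 lower in hippocampus, against 11.7% of all 14664 probes (5.51% higher, 6.16% lower). Under CCH 20 differed, 9 higher and 11 lower (14.3% of all probes, 6.83% higher and 7.43% lower), and under CIH 17, 9 higher and 8 lower (10.7%, 4.62% higher and 6.04% lower). Each of these sets compares 3 hippocampal with 3 cortical arrays that the others do not hold, though all share the estimate of spread. The fit treats hippocampal and cortical arrays as independent, and with the number, which is also the slide, as a replicate block the calls were 20 in controls, 22 under CCH and 18 under CIH. Over the 3 sets 22 probes of 20 genes were called at least once (19.7% of all probes were), each with 1 direction in all 3 sets, and 14 probes of 12 genes were called in every set, which is 23.3% of the member probes and 6.40% of all probes. The median difference of the 60 probes was 0.02 log2 units in controls, −0.01 under CCH and −0.02 under CIH, beside 0.01, 0.01 and 0.00 for all probes. Cdh7, Col24a1 and Cdh4 passed the detection filter only through cortex. Without such probes 16 of 57 members were called in controls (11.02% of the 14199 probes left), 17 under CCH (13.6%) and 15 under CIH (10.1%), and 12 in every set (5.95%).

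**Figure D2:**
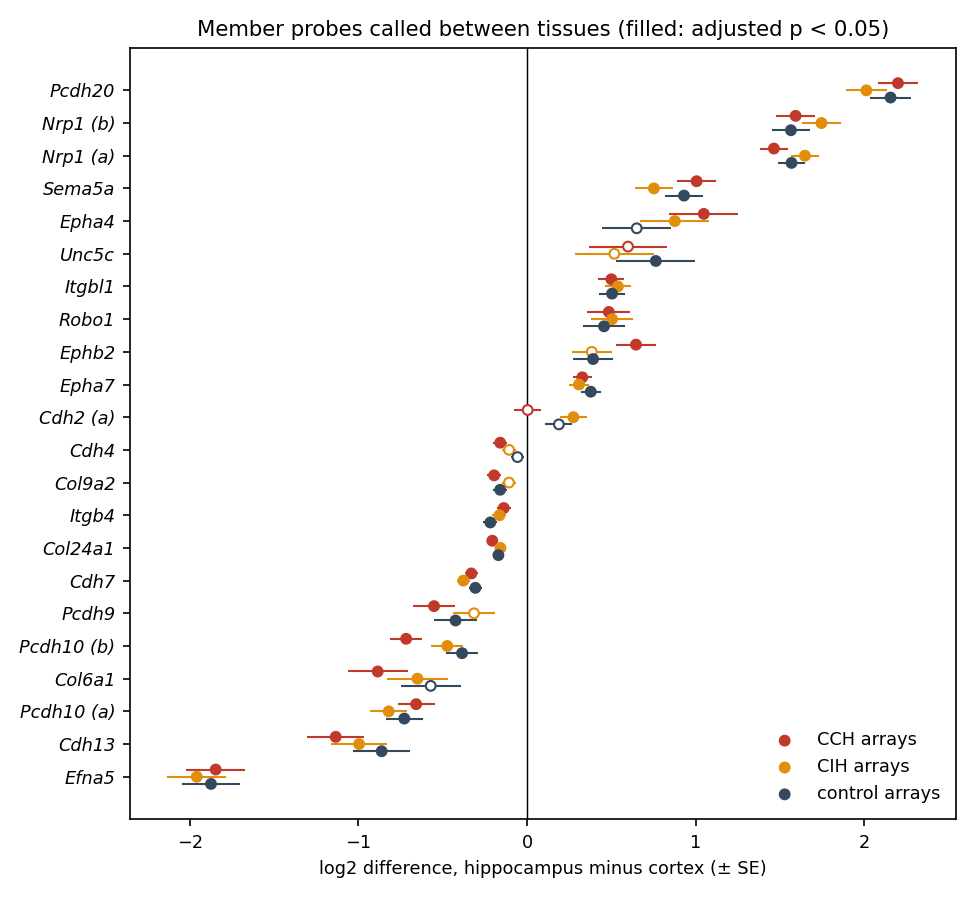
Log2 difference of hippocampus minus cortex (horizontal axis, ± SE) for the 22 member probes called in at least 1 exposure (vertical axis, gene and, where a gene has 2 probes, the letter of the probe), for CCH, CIH and control arrays. Filled points passed the adjusted p threshold, and the direction was the same in all 3 exposures for each probe called.

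The promoters of 4 genes called between the tissues are shown so that a neuropilin, a protocadherin, an Eph receptor and an ephrin can be set side by side: Nrp1, Pcdh20 and Epha4 with more signal in hippocampus, Efna5 with less. They run from 250 bases before to 50 bases from the annotated start (RefSeq, GRCm38.p6), 5′ to 3′ on the gene's strand. Capitals mark matches, on either strand, to the core of the hypoxia response element (ACGTG or GCGTG), the GC box (GGGCGG) and the TATA box (TATAAA), where neighbouring matches may share a base.
Nrp1 (chr8:128358823-128359122, plus strand): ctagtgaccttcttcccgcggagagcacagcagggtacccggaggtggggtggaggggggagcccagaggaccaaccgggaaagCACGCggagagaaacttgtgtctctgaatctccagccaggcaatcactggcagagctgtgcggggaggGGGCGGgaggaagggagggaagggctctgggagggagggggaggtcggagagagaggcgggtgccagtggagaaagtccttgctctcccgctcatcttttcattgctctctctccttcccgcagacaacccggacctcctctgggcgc
Pcdh20 (chr14:88471347-88471646, minus strand): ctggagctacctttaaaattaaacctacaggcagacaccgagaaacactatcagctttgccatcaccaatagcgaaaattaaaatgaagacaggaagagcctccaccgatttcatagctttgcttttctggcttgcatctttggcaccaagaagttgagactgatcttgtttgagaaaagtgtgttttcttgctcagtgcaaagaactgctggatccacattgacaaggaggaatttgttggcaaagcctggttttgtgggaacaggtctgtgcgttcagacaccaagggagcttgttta
Epha4 (chr1:77515039-77515338, minus strand): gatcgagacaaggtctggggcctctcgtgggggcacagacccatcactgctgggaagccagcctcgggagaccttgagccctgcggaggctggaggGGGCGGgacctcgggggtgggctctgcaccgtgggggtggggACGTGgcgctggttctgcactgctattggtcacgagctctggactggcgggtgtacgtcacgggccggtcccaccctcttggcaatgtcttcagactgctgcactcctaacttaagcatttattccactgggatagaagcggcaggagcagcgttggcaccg
Efna5 (chr17:62881268-62881567, minus strand): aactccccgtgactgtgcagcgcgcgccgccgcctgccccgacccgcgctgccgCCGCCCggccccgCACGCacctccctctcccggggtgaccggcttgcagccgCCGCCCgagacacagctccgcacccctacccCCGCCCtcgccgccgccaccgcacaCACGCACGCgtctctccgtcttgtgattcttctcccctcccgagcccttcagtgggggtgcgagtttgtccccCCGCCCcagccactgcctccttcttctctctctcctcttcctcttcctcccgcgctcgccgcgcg
Nrp1 and Epha4 each held 1 hypoxia core and 1 GC box, Efna5 3 hypoxia cores and 4 GC boxes, and Pcdh20 no match to any of these letters. GC content was 64.0% in Nrp1, 43.7% in Pcdh20, 64.0% in Epha4 and 73.3% in Efna5. Of 35 tested member genes with a promoter in the table, 18 (51.4%) held a hypoxia core, against 43.8% of 27025 promoters of the same length, 23 (65.7%) a GC box, against 35.9%, and 1 (2.86%) a TATA box, against 14.2%. The 27025 promoters were not limited to detected genes, as the 35 were, so these shares do not compare the families with other detected genes. A hypoxia core lay in 5 of 9 promoters of genes called higher in hippocampus and in 4 of 7 of those called lower. A GC box lay in 5 of the 9 and in 3 of the 7. Among the called genes without an entry were Itgb4 and Cdh13.

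Among the guidance cues, the ephrin and a semaphorin went opposite ways. Efna5, the GPI-anchored ephrin-A5 that repels axons carrying EphA receptors, read 7.66, 8.02 and 8.64 log2 units on the control hippocampal arrays, against 9.97, 10.04 and 9.94 on the control cortical arrays. The 9 hippocampal arrays lay at 7.66 to 8.64 and the 9 cortical arrays at 9.84 to 10.17, so the tissues did not overlap. The hippocampal signal was 0.273 times the cortical one in controls (log2 −1.87 ± 0.17 SE, adjusted p = 4.5e-06 in limma), 0.278 times under CCH and 0.257 times under CIH. Sema5a, a transmembrane semaphorin that guides axons and dendrites, read 10.57, 10.71 and 10.87 as the lowest, median and highest hippocampal array, against 9.32, 9.87 and 10.02 in cortex. It was 1.91-fold higher in control hippocampus (log2 0.93 ± 0.11, adjusted p = 6.7e-05), 2.01-fold under CCH and 1.68-fold under CIH, with all 9 hippocampal arrays above all 9 cortical arrays. The other 6 semaphorin probes, Sema3b, Sema4d, Sema4g, Sema5b, Sema6a and Sema7a, passed in no exposure. Of these, Sema3b, Sema4d, Sema5b and Sema6a were detected on 8 to 11 of the 18 arrays. They lay near the lowest detected signal, where a tissue difference could be hidden. Slit2, the Robo ligand, differed by −0.28 ± 0.11 in controls (adjusted p = 0.126), and the 2 probes of Ntn3, a netrin, by 0.11 and 0.15.

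The guidance receptors called between the tissues were all higher in hippocampus. Nrp1, the coreceptor of class 3 semaphorins and of vascular endothelial growth factor, was read by 2 probes. Probe a gave 10.88, 11.09 and 11.03 log2 units on the control hippocampal arrays and 9.41, 9.51 and 9.38 on the control cortical arrays. Probe b gave 10.22, 10.59 and 10.19 in control hippocampus and 8.73, 8.83 and 8.75 in control cortex. On both probes every hippocampal array of the series lay above every cortical array. The 2 probes put control hippocampus 2.97-fold (log2 1.57 ± 0.08) and 2.96-fold (1.57 ± 0.11) above control cortex, at adjusted p of 1.9e-08 and 4.7e-07 in limma. Under CCH they gave 2.76-fold and 3.02-fold and under CIH 3.13-fold and 3.35-fold. Plxna2, a class A plexin of the kind that pairs with neuropilins, differed by −0.40 log2 units in controls, and Plxnb2, a receptor of class 4 semaphorins, by 0.11, neither called.

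The Eph receptors tested were Epha4, Epha7 and Ephb2. Epha4, a receptor tyrosine kinase that binds ephrins of both classes, read 8.77, 8.81 and 8.65 in CCH hippocampus and 7.67, 7.56 and 7.86 in CCH cortex, a 2.07-fold difference (log2 1.05 ± 0.21, adjusted p = 0.0032). Under CIH it was 1.84-fold higher in hippocampus (adjusted p = 0.012). Both calls were lost without the arrays with high Xist. There the difference was 1.12 log2 units under CCH, with 1 CCH cortical array left, and 0.89 under CIH (adjusted p = 0.0935 in limma). In controls the values were 9.05, 8.52 and 8.26 in hippocampus and 8.32, 7.79 and 7.77 in cortex, which overlapped (log2 0.65 ± 0.21, adjusted p = 0.056). Epha7, its relative, was higher in hippocampus by 0.38 log2 units in controls, 0.33 under CCH and 0.31 under CIH, at 6.93 to 7.19 on hippocampal arrays and 6.62 to 6.76 on cortical ones, close to the lowest detected signal of 6.68 to 6.76 per array. It was detected on all 9 hippocampal arrays but in cortex on 1 of 3 CCH, 1 of 3 CIH and 2 of 3 control arrays, so the cortical level is not well measured. Its CCH and CIH calls were lost without the arrays with high Xist. The differences there were 0.28 log2 units under CCH, with 1 CCH cortical array left, and 0.28 under CIH (adjusted p = 0.0838 in limma). Ephb2, which acts in excitatory synapses as well as in axon guidance, was 1.56-fold higher under CCH (adjusted p = 0.0021) and 1.31-fold in controls (adjusted p = 0.048), but under CIH had log2 0.38 ± 0.12 (adjusted p = 0.057), with the 9 hippocampal arrays at 7.28 to 7.94 and the 9 cortical arrays at 6.93 to 7.17. The receptors of the Eph family and their ligand Efna5 lay in opposite directions between the tissues.

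Robo1, the Slit receptor, had all 9 hippocampal arrays at 10.16 to 10.54 and all 9 cortical arrays at 9.64 to 10.11, with differences of 0.46 ± 0.13 log2 units in controls, 0.49 under CCH and 0.50 under CIH, each called (adjusted p = 0.029, 0.019 and 0.018 in limma). Robo3, a relative that makes crossing axons tolerant of Slit, passed in no exposure. Unc5c, the repulsive netrin receptor, was 1.70-fold higher in control hippocampus (8.37, 9.30 and 9.07 against 8.09, 8.18 and 8.17 in control cortex, adjusted p = 0.049), and differed by 0.60 log2 units under CCH and 0.52 under CIH without passing the test. Unc5b, which is also an endothelial receptor, passed in none.

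Several receptor calls were near the threshold, and some depended on 1 array. In controls Ephb2 lost its call without any 1 of the 6 arrays (adjusted p up to 0.174), Unc5c without 5 of the 6 (up to 0.198) and Robo1 without control cortex 2 or 3 or control hippocampus 2 (up to 0.124). Under CCH Robo1 lost it without CCH cortex 2 or 3 or CCH hippocampus 2 (up to 0.0928), and under CIH without CIH cortex 3 or CIH hippocampus 1 or 3 (up to 0.0925). Epha4 lost its CIH call without CIH cortex 2 or CIH hippocampus 1 (up to 0.0624). Without the arrays with high Xist, none of them a control, Ephb2 and Unc5c lost their control calls (adjusted p = 0.0621 and 0.0579 in limma). Their control differences stayed at 0.39 and 0.76 log2 units, and only the shared spread estimate and the adjustment changed. In that setting Robo1 lost its CCH call, at 0.38 log2 units with 1 CCH cortical array left.

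**Figure D3:**
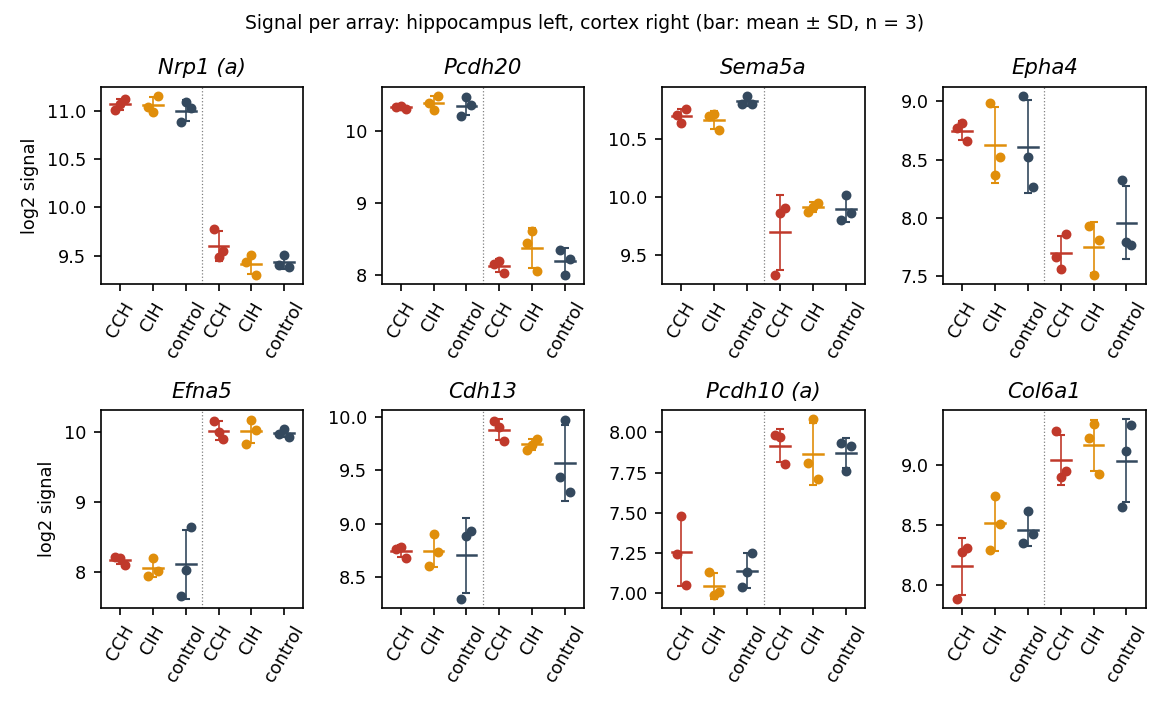
Log2 signal per array (vertical axes, each with its own range) for 8 probes, hippocampal groups left and cortical groups right of the dotted line, points for the 3 arrays of a group and bars for mean ± SD. Nrp1, Pcdh20, Sema5a and Epha4 had higher means in hippocampus and Efna5, Cdh13, Pcdh10 and Col6a1 lower ones in CCH, CIH and control groups, but the control differences of Epha4 and Col6a1 did not pass the test.

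Of the 5 tested protocadherin probes outside the clusters, 4 were called between the tissues in at least 1 exposure. Pcdh20 read 10.21, 10.46 and 10.36 log2 units in control hippocampus and 8.35, 7.996 and 8.22 in control cortex. It was 4.46-fold higher in control hippocampus (log2 2.16 ± 0.12, adjusted p = 3.4e-08 in limma), 4.60-fold under CCH and 4.04-fold under CIH, and the lowest hippocampal array (10.21) lay above the highest cortical one (8.61). Of the 60 member probes it had the highest difference in each exposure. Pcdh10, a delta-protocadherin of forebrain axons, was lower in hippocampus on both of its probes. Probe a read 6.99 to 7.48 on the 9 hippocampal and 7.71 to 8.08 on the 9 cortical arrays, and was 0.604 times the cortical signal in controls (adjusted p = 0.0004), 0.634 times under CCH and 0.566 times under CIH. Probe b read 6.94 to 7.06 and 7.26 to 8.02, with ratios of 0.765, 0.608 and 0.720, of which the control call was lost without control cortex 2 (adjusted p = 0.0654). Pcdh9 was 0.745 times the cortical signal in controls (adjusted p = 0.041) and 0.682 times under CCH (0.0087), and under CIH differed by −0.31 ± 0.13 log2 units (0.15). Its control call was lost without 5 of the 6 arrays (adjusted p up to 0.173). It was also lost without the arrays with high Xist (0.05005), none of them a control. The control difference was the same there (log2 −0.42), and only the spread estimate and the adjustment changed.

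None of the 11 clustered protocadherin probes was called between the tissues in any exposure, but only 4 of them were detected on all 18 arrays. Pcdha2, Pcdha12, Pcdha5, Pcdhac1 and Pcdhb22 were detected on 4 to 11 arrays. They lay near the lowest detected signal of 6.68 to 6.76 per array, where a tissue difference could be hidden. In controls their differences ran from −0.21 to 0.08 log2 units, with 4 of 11 above 0. Probes of the alpha cluster, such as those named Pcdha1 (11.77 to 12.22 over the 18 arrays) and Pcdha11 (10.14 to 10.90), may read exons that all alpha members share, so their signal cannot be given to 1 member.

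Among the cadherins, those called in every exposure, Cdh13 and Cdh7, were lower in hippocampus. Cdh13, the GPI-anchored T-cadherin, read 8.30, 8.88 and 8.93 in control hippocampus and 9.44, 9.97 and 9.29 in control cortex. The hippocampal signal was 0.550 times the cortical one in controls (adjusted p = 0.0031), 0.455 times under CCH and 0.501 times under CIH, and the 9 arrays of each tissue did not overlap. Cdh7 was detected on all 9 cortical arrays and on no hippocampal array, and was at least 1.15-fold lower in hippocampus under CCH, at least 1.22-fold under CIH and at least 1.14-fold in controls (adjusted p = 5.4e-05, 1.6e-05 and 1e-04), the bound being set by each array's lowest detected signal. It entered the test only through the cortex. Cdh4, detected on 3 cortical arrays only, was called under CCH alone (adjusted p = 0.017), with no fold because its level was near the lowest detected signal, and lost the call without CCH cortex 1 or CCH hippocampus 2 (up to 0.0645). Cdh2, N-cadherin, was called under CIH alone on probe a (log2 0.27 ± 0.08 higher in hippocampus, adjusted p = 0.041) and lost the call without 5 of the 6 arrays (up to 0.186) and without the arrays with high Xist (0.304). Cdh8 was called in none.

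Of the matrix and integrin-named genes 5 were called in at least 1 exposure, Col6a1, Col9a2, Col24a1 and Itgb4 lower in hippocampus and Itgbl1 higher. Col6a1, a chain of microfibrillar collagen VI, read 7.89, 8.28 and 8.31 in CCH hippocampus and 9.28, 8.90 and 8.95 in CCH cortex, 0.541 times the cortical signal (adjusted p = 0.0039). Under CIH it was 0.637 times (adjusted p = 0.031, lost without 4 of the 6 arrays, up to 0.127) and in controls it differed by −0.57 ± 0.18 log2 units (0.054). Col9a2, a chain of the fibril-associated collagen IX, was at least 1.10-fold lower under CCH, where no hippocampal array detected it (adjusted p = 0.0057), and 0.895 times in controls (0.021, lost without control cortex 3 or control hippocampus 1, up to 0.113), with all 9 hippocampal arrays at 6.64 to 6.79 and all 9 cortical arrays at 6.84 to 6.96. Col24a1, a fibrillar collagen chain, was called in all 3 exposures but was detected on 2 CCH and 2 control cortical arrays and on no other array, so no fold is given and under CIH no array of either tissue measured it. The remaining 8 collagen probes and Lamb2 passed in no exposure. Of these, Col7a1, Col8a1 and Col1a1 were detected on 8, 12 and 13 of the 18 arrays. Itgb4, the integrin chain that pairs with alpha 6 in hemidesmosomes, was 0.860 times the cortical signal in control hippocampus (adjusted p = 0.0026), 0.909 times under CCH (0.039) and 0.893 times under CIH (0.019), at 6.68 to 6.85 log2 units on hippocampal and 6.80 to 7.06 on cortical arrays. All 9 cortical arrays detected it, but in hippocampus 1 of 3 CCH, 2 of 3 CIH and 3 of 3 control arrays did, so the ratios under hypoxia rest on a partly undetected group. Its CCH call was lost without 5 of the 6 arrays (up to 0.131) and its CIH call without CIH cortex 2 or CIH hippocampus 1 (up to 0.0945). Without the arrays with high Xist Itgb4 (log2 −0.19) and Col9a2 lost their CCH calls, with 1 CCH cortical array left. Itgb4 (adjusted p = 0.153 in limma), Col6a1 (0.115) and Col24a1 (0.0621) lost their CIH calls. Col9a2 also lost its control call (0.0511), although no control array was left out and its control difference was the same. Only the spread estimate and the adjustment changed. Itgbl1, an integrin-like protein that is no receptor chain, was 1.42-fold higher in control hippocampus, 1.41-fold under CCH and 1.45-fold under CIH, with 7.05 to 7.42 on hippocampal and 6.73 to 6.84 on cortical arrays.

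Over all 18 arrays 15 member probes (25%) had the 9 arrays of 1 tissue on 1 side of the 9 arrays of the other, against 8.20% of all probes. Without probes detected in 1 tissue only it was 13 of 57, against 7.26%. With the 3 arrays of each tissue in 1 exposure, 28 member probes did not overlap in controls, 24 under CCH and 31 under CIH, where 26.8%, 31.2% and 28% of all probes did not. Of the calls, 12 of 18 in controls, 17 of 20 under CCH and 12 of 17 under CIH were kept whichever of their 6 arrays was left out. All 55 had the same direction on each of the 3 slides. They were called on these same arrays, which makes that likely beforehand, so it adds no support. Without the 5 arrays with high Xist the calls were 15 in controls and 11 under CIH. The control differences were the same, since no control array was left out, and only the spread estimate and the adjustment changed. Under CCH 1 cortical array was left, so no count is given.

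Partner genes outside the families were read from lists of known partners, with called counts to be set beside 5.51% higher and 6.16% lower over all probes in controls, 6.83% and 7.43% under CCH, and 4.62% and 6.04% under CIH. Of 18 probes for guidance signalling partners 3 were higher and 0 lower in control hippocampus, namely Nck2, an adaptor of Eph and netrin receptors (0.58 log2 units), Pak3, a kinase downstream of Rac (0.29), and Dpysl3, a collapsin response mediator (0.63). Under CCH 1 was higher, Nck2 (0.56), and 1 lower, Rtn4, which encodes Nogo (−0.39), and under CIH 3 were higher and 0 lower. Of 22 probes for immunoglobulin-type adhesion molecules 0 were higher and 5 lower in control hippocampus, namely Ntm (−1.01), Cntnap2 (−0.68), Negr1 (−0.53), Alcam (−0.51) and Nrxn3 (−0.40), with 0 higher and 7 lower under CCH, and 1 higher and 3 lower under CIH. Ntm, Negr1 and Nrxn3 were lower in all 3 exposures, and the 1 higher was Cadm1 (0.70). Of 10 cadherin and catenin partners 1 was higher in each exposure, Pkp2, a desmosomal plakophilin (1.24 under CCH, 1.16 under CIH, 1.32 in controls), and in controls 1 was lower, Fat3, a giant cadherin (−0.61), which was not called under CCH or CIH. Of 15 other matrix probes 2 were higher in controls, both of Dcn, and 2 lower, Hspg2, which encodes perlecan (−0.57), and Reln, the layering signal of cortical neurons (−0.43), with 3 higher and 3 lower under CCH and 2 higher and 0 lower under CIH. Matrix processing genes had 1 of 11 higher, Loxl1 (0.45), and 1 lower, Adam23 (−0.38), in controls, 2 higher and 2 lower under CCH, and 0 under CIH. Of 11 integrin partner probes 1 was called, Cd47, an integrin-associated protein, lower under CCH (−0.48).

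The second question is whether 2 weeks of hypoxia changed these genes within a tissue. No member probe was called by limma in any of the 4 comparisons with control, where 0.846% of all probes were called for CCH in cortex, 0.15% for CIH in cortex, 0.518% for CCH in hippocampus and 0.0614% for CIH in hippocampus. At an unadjusted p under 0.05 there were 9 of 60 member probes for CCH in cortex (10.8% of all probes), 1 for CIH in cortex (6.38%), 3 for CCH in hippocampus (8.39%) and 1 for CIH in hippocampus (6.39%). The medians of the 60 changes were 0.00, 0.02, −0.02 and 0.01 log2 units in that order of comparisons, beside 0.00, 0.01, 0.00 and 0.00 for all probes. The 60 changes ran from −0.31 to 0.37 for CCH in cortex, from −0.21 to 0.19 for CIH in cortex, from −0.42 to 0.30 for CCH in hippocampus and from −0.29 to 0.19 for CIH in hippocampus. In simulated data for CCH in cortex, 38% of planted changes of 0.25 log2 units were recovered, and 64% of those of 0.5. Real changes of these sizes could therefore go uncalled. With hypoxic and control arrays not overlapping there were 10, 6, 7 and 6 member probes, where 15.1%, 12.5%, 12.2% and 9.48% of all probes did not overlap.

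**Figure D4:**
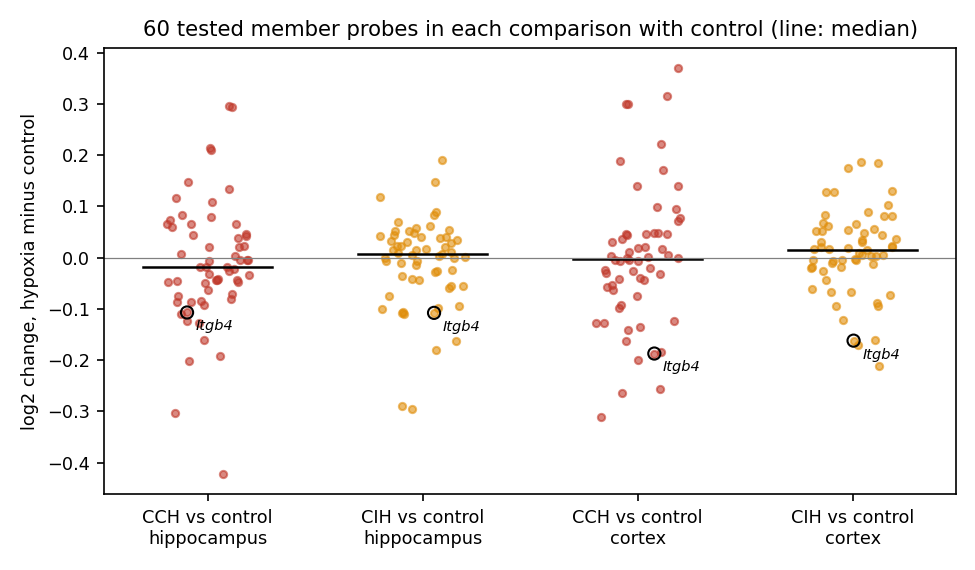
Log2 change of hypoxia minus control (vertical axis) for the 60 tested member probes in each of the 4 comparisons (horizontal axis), with the median as a line and Itgb4 ringed. The medians lay between −0.02 and 0.02, and no member passed the adjusted p threshold in a single tissue.

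Itgb4 came nearest, with less signal in all 4 hypoxia groups. In CCH hippocampus it read 6.71, 6.71 and 6.74 and in CIH hippocampus 6.68, 6.74 and 6.74, against 6.80, 6.82 and 6.85 in control hippocampus. In cortex it read 6.90, 6.86 and 6.81 under CCH and 6.80, 6.97 and 6.87 under CIH, against 7.06, 7.05 and 7.02 in controls. Every hypoxic array lay below every control array of its tissue, but the hippocampal values are at the lowest detected signal, and the probe was detected on 1 of 3 CCH and 2 of 3 CIH hippocampal arrays. The changes were −0.19 ± 0.04 log2 units for CCH in cortex (adjusted p = 0.0533), −0.16 ± 0.04 for CIH in cortex (0.238), and −0.11 ± 0.04 for both exposures in hippocampus (0.439 for CCH, 0.639 for CIH).

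With the tissues averaged, Itgb4 was the only member called, lower under CCH (log2 −0.15 ± 0.03, adjusted p = 0.016) and under CIH (−0.13 ± 0.03, adjusted p = 0.0488), where 2.2% and 0.9% of all probes were called (1.19% and 0.518% lower). Unadjusted p was under 0.05 for 11 members (12.7% of all probes) and 1 member (8.93%). With the slide as a replicate block the CCH call held (adjusted p = 0.0214) and the CIH call did not (0.0555). The CIH call was lost on leaving out any of 11 of the 12 arrays (change −0.16 to −0.12, adjusted p up to 0.132) and without the arrays with high Xist, where the change was −0.16 (0.0686). The CCH call was kept whichever array was left out (adjusted p up to 0.0466 in limma). It was lost without the arrays with high Xist, where the change was −0.13 with 1 CCH cortical array left. Its hemidesmosome partner Itga6 was detected on 2 of 3 CCH and 0 of 3 control cortical arrays, a ratio of at least 1.05-fold that was not called (adjusted p = 0.174). On the same arrays 4 of 11 myelin and oligodendrocyte probes were lower for CCH in cortex, 1 for CIH in cortex, 7 for CCH in hippocampus and 0 for CIH in hippocampus, with medians of −0.50, −0.35, −0.72 and −0.45 log2 units. The mean log2 signal of those 11 probes was 8.47 to 8.86 in CCH, 8.81 to 9.17 in CIH and 9.24 to 9.60 in control hippocampus, and 9.10 to 9.23, 9.11 to 9.39 and 9.60 to 9.69 in CCH, CIH and control cortex. Their part in the Itgb4 change was not tested.

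Slit2, the Robo ligand, had changes of opposite sign in the tissues under CCH. It read 8.08, 8.47 and 8.04 in CCH hippocampus against 7.74, 7.99 and 7.97 in control hippocampus, and 7.78, 7.91 and 7.92 in CCH cortex against 8.16, 8.21 and 8.17 in control cortex. Neither pair overlapped, and neither change passed (0.30 ± 0.11 with adjusted p = 0.400 in hippocampus, −0.31 ± 0.11 with adjusted p = 0.270 in cortex). The interaction of tissue and CCH was 0.61 ± 0.15 log2 units, the highest of the 60 members, with an unadjusted p of 0.00148 and an adjusted p of 0.996 in limma. No probe of the array was called in either interaction, and 2 members had an unadjusted p under 0.05 for CCH (4.57% of all probes) and 0 for CIH (2.61%). Under CIH its changes were 0.09 in hippocampus and −0.17 in cortex.

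The other members with the highest and lowest changes under CCH, ranked among members detected on all 3 arrays of a compared group, did not pass either. In cortex the highest were Pcdh10 on probe b (0.37 ± 0.09, adjusted p = 0.104), Cdh13 (0.31), the semaphorin receptor Plxnb2 (0.30), Cdh8 (0.30) and Pcdhgc5 (0.22). Pcdh10 probe b read 8.02, 7.62 and 7.61 in CCH cortex against 7.39, 7.49 and 7.26 in control cortex, while probe a of the same gene overlapped, at 7.98, 7.97 and 7.80 against 7.93, 7.76 and 7.92. The lowest changes in CCH cortex were those of Slit2, Epha4 (−0.26), Unc5c (−0.26), Sema5a (−0.20) and Itgb4. In CCH hippocampus the highest were Slit2, the vitronectin receptor chain Itgb5 (0.29), Plxnb2 (0.22), Ephb2 (0.21) and Pcdhgc5 (0.15), and the lowest Unc5c (−0.42), Col6a1 (−0.30), Pcdh9 (−0.20) and both probes of Ntn3 (−0.19 and −0.16). Unc5c read 8.32, 8.85 and 8.30 in CCH hippocampus against 8.37, 9.30 and 9.07 in control hippocampus, which overlapped. Adjusted p ran from 0.270 to 0.780 for these in cortex, apart from Pcdh10 and Itgb4, and from 0.400 to 0.826 in hippocampus.

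Under CIH the changes were smaller in range. In CIH cortex the highest were Pcdhgb1 (0.19), Pcdh20 (0.18), Cdh13 (0.18), Col6a1 (0.13) and Pcdhgc5 (0.13), and the lowest Epha4 (−0.21), Slit2, Itgb4, Itgb5 (−0.16) and Pcdh9 (−0.12). Col1a1, detected on 2 of 3 arrays of either group in hippocampus and so left out of the ranking, changed by 0.12 there. In CIH hippocampus the highest in the ranking were Nrp1 on probe b (0.19), Cdh2 on probe a (0.15), Slit2, Plxnb2 (0.08) and Itgbl1 (0.07), and the lowest Unc5b (−0.29), Unc5c (−0.29), Ntn3 on probe b (−0.18), Sema5a (−0.16) and Col5a1, a fibrillar collagen chain (−0.11). Apart from Itgb4 in cortex, each had an adjusted p of at least 0.860. Of these 20 changes 4 took the other sign on leaving out 1 array: Col6a1 in cortex (−0.060 without control cortex 1), Itgb5 in cortex (0.019 without CIH cortex 2), Itgbl1 in hippocampus (−0.0096 without control hippocampus 1) and Col5a1 in hippocampus (0.114 without control hippocampus 3).

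**Figure D5:**
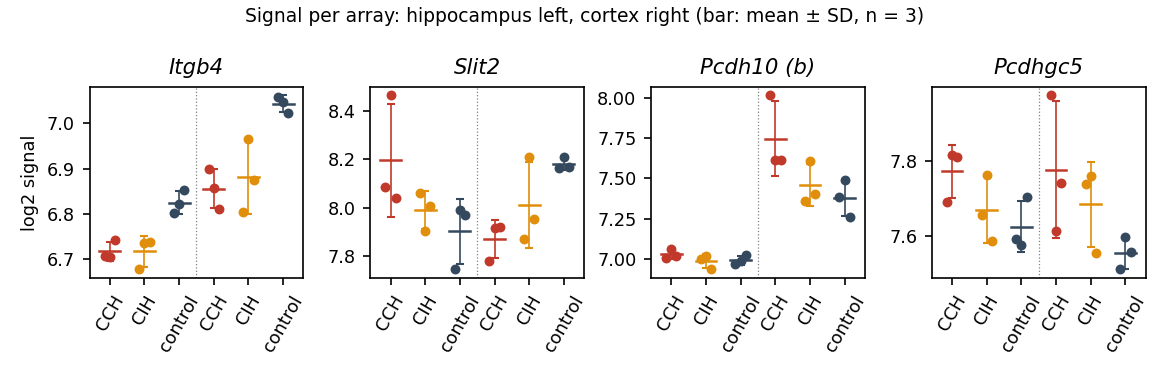
Log2 signal per array (vertical axes, each with its own range) for Itgb4, Slit2, Pcdh10 probe b and Pcdhgc5, hippocampal groups left and cortical groups right of the dotted line, points for the 3 arrays of a group and bars for mean ± SD. Itgb4 lay lower in CCH and CIH than in control arrays of both tissues, and Slit2 under CCH lay above control in hippocampus and below it in cortex.

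The 5 arrays with high Xist bear on cortex above all, because without them CCH cortex keeps 1 array, CCH cortex 1, which also lay farthest from 0 on the second principal component of all probes. Set on that array, the changes for CCH in cortex included 0.64 log2 units for Pcdh10 probe b, −0.57 for Sema5a and 0.42 for Pcdhgc5. A group of 1 array has no spread of its own, so no calls are counted there. Single values of CCH cortex 1 stand apart from CCH cortex 2 and 3 in these probes, such as 9.32 against 9.85 and 9.90 for Sema5a. No member was called without those arrays for CIH in cortex or for either exposure in hippocampus.

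No member was called between intermittent and continuous hypoxia. For CIH against CCH none of 60 probes was called by limma in cortex (0.471% of all probes called) or in hippocampus (0.286%), with 5 and 2 at an unadjusted p under 0.05 (9.81% and 6.61% of all probes). In cortex these 5 were Pcdh10 probe b (−0.29), Nrp1 probe a (−0.19), Itga6 (at least 1.03-fold lower under CIH, where no array detected it), Col22a1 (0.14) and Pcdh1 (−0.09), and in hippocampus Cdh2 probe a (0.23) and Sema3b (−0.14), named after their values were seen. The changes of the 2 exposures against control share the control arrays and are given above side by side only.

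The partner lists gave 1 call in a single tissue. Of 10 cadherin and catenin partners, 11 integrin partners, 18 guidance partners, 15 other matrix probes and 11 matrix processing probes, 0 were called in any of the 4 single-tissue comparisons with control. Of 22 probes for immunoglobulin-type adhesion molecules 1 was higher for CCH in cortex, Pecam1, an endothelial adhesion molecule (0.39 log2 units), and 0 in the other 3. With the tissues averaged, Pecam1 (0.28) and Egfl7, a matrix protein secreted by endothelium (0.28), were higher under CCH, where 2.2% of all probes were called, and no partner probe was called under CIH. In the single-tissue comparisons the medians of these lists ran from −0.09 to 0.05 log2 units. Pecam1 and Egfl7 are among 5 endothelial marker probes, whose mean log2 signal was 7.86 to 7.92 in CCH cortex, 7.59 to 7.65 in CIH cortex and 7.52 to 7.60 in control cortex, and 7.79 to 7.86, 7.49 to 7.53 and 7.42 to 7.60 in CCH, CIH and control hippocampus. The part of the endothelial markers in the Pecam1 and Egfl7 changes was not tested. Of 6 probes of meningeal fibroblasts, which make many collagens, 0 were called in these 4 comparisons.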

How the data were processed

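Cortex and hippocampus RNA, 100 ng per sample, was read on Illumina Mouse-6 V1 arrays. The deposited export holds an intensity per probe, not normalized per the file headers, and a deposited detection score of up to 1 per probe. The submitters' processing notes name BeadStudio 2.0, the header 1.5.1.3, and 108 further columns were not used. Deposited series values, an alternative only, are the deposited intensity minus a constant per array, except control cortex 2 with 0 subtracted.

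Intensities were normalized with neqc in limma 3.58.1 (R 4.3.3): detection p as 1 minus score, offset 16, quantile, log2. Testing took in the 14664 probes whose score passed 0.99 on at least 3 arrays. One lmFit and eBayes model with 6 group means served every comparison, with two-sided p-values and a Benjamini-Hochberg adjustment over all probes tested. The fit was tested on simulated data for CCH against control in cortex only. There it recovered 19 of 50 planted changes of 0.25 log2 units, 32 of 50 of 0.5, and 50 of 50 of 1.

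Members and lists were chosen with earlier results of these data known. Symbols came from RefSeq (GRCm38.p6): 82.6% of 11897 identifiers matched. Named are all members called and, per single-tissue comparison with control, those with the 5 highest and 5 lowest changes among members detected on all 3 arrays of a group. The hybridization log puts replicate number and slide together, with 1 array of each group per slide at a fixed position, which therefore cannot be told apart from the group. Of 45 pairs of arrays with the same number 31 correlated above 0.1 after group means were removed, against 17 of 90 with unlike numbers. The series text calls the CIH mice CCH treated, and titles were followed. Alternatives were other background and scaling, deposited values, detection filters, the slide block, fewer arrays in the fit, leaving out each array, the arrays with high Xist and, added after seeing the data, the 3 arrays farthest on the second component. Arrays give no counts, so 3 arrays per group limit the precision.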

Additional observations from a re-analysis of the deposited data

How the results depend on the processing

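For hippocampus against cortex, member calls were 18 in controls, 20 under CCH and 17 under CIH. They were 20, 22 and 18 with the replicate block, and 13 to 17, 17 to 20 and 12 to 16 on leaving out single arrays. Deposited series values gave 7, 12 and 10, with Cdh7, Col24a1, Cdh4, Col9a2 and Itgb4 empty there. Probes with values lost calls there too, among them Itgbl1 in all 3 exposures and Epha7 in controls. Probes detected on all 18 arrays gave 14, 13 and 12 calls of 34 tested. Arrays without high Xist gave 15 in controls, whose own arrays and differences were unchanged, and 11 under CIH. Under CCH 1 cortical array was left there, so no count is given. Only probes detected in both tissues, an alternative chosen after seeing the data, gave 16, 17 and 15 of 57 members. Of all 14199 such probes 11.02%, 13.6% and 10.1% were called. For the other alternatives the share of all probes called is not given here. Their counts show how calls moved with the setting, not how members compare with all probes. For CCH in cortex, 75th percentile scaling called 1 member (Itgb4, adjusted p = 0.0315), as did leaving out the 3 arrays farthest on component 2 (Itgb4, 0.0381), an alternative chosen after seeing the data. Without high Xist arrays there were 6 calls, with 2 for CIH against CCH in cortex and 1 for the interaction of tissue and CCH. For the tissues averaged under CCH, calls were 0 with deposited values and with detection on all 18 arrays, where Itgb4 was not tested, 5 without high Xist arrays, and 1 to 1 on leaving out single arrays. For the tissues averaged under CIH, calls were 0 with deposited values, detection on all 18 arrays, the replicate block, only the arrays compared and no high Xist arrays, and 0 to 1 on leaving out single arrays. The block changed no other count by more than 1.5 times. Signs turned for 4 uncalled changes under CIH, with these ranges on leaving out single arrays: Col6a1 in cortex (−0.060 to 0.277), Itgb5 in cortex (−0.290 to 0.019, and 0.019 without the high Xist or the component 2 arrays), Itgbl1 in hippocampus (−0.0096 to 0.113) and Col5a1 in hippocampus (−0.262 to 0.114, 0.029 with deposited values and 0.114 without the component 2 arrays). Of 832 values of named members under other settings 754 kept direction and side of the threshold, and of 594 with 1 array left out 530 did. The causes were not tested.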
